A study of Mus musculus with 8 samples.

Results

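NMDA receptors are glutamate receptor channels built from the obligatory subunit GluN1 (gene Grin1) together with GluN2 subunits (Grin2a, Grin2b, Grin2c, Grin2d) or GluN3 subunits. The GluN3 genes are Grin3a and Grin3b, and Grin3b is not among the members here. Receptors with GluN2 open when glutamate binds GluN2 and glycine or D-serine binds GluN1. They pass calcium, and ethanol inhibits them. In the rodent cerebellum, granule cells exchange GluN2B for GluN2A and GluN2C as they mature, and Grin2c is a gene that mature granule cells use heavily.

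The members are the probe sets of the Affymetrix 430A and 430B arrays whose only gene symbol in the platform annotation is Grin1, Grin2a, Grin2b, Grin2c, Grin2d or Grin3a. This gave 11 probe sets of 5 genes among the 45137 probe sets of both arrays apart from controls, with 5 on 430A and 6 on 430B. Grin2b had 4 probe sets, Grin3a 3, Grin2d 2 and Grin2a and Grin2c 1 each. None was matched to Grin1 by this rule, and the obligatory subunit was not analysed here.

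Cerebellar RNA was taken from male mice that had never been given alcohol. Mice 48 and 51 were Inbred Long Sleep (ILS) and mice 55 and 56 Inbred Short Sleep (ISS), lines bred for how long ethanol abolishes the righting reflex, and each group stands for 1 inbred line. The labels name no transgene and no age, and the mice had been kept with free food and water for 14 days since their transfer. Each of the 4 mice was measured on both arrays, at baseline, so that strain is the only contrast.

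Probe set values are signal intensities on a linear scale, scaled by the authors to equal trimmed means per array. A log2 difference below is ILS minus ISS, with a positive value for a higher signal in ILS. Levels are not compared between probe sets or between 430A and 430B, since each probe set has its own response and each chip its own scaling. A probe set was tested where its mean log2 signal reached the median of its chip, and a call is an adjusted p under 0.05 in limma over all tested probe sets of the chip. The cerebellar label was checked by bright signals of Pcp2, a Purkinje cell gene (5742 ± 360 in ILS and 8087 ± 1301 in ISS, SD, n = 2). Of 10 genes with a 430A probe set in a list of brainstem, midbrain and forebrain neuron markers, 3 (Tbr1, Neurod6 and Slc6a3) lay below the array median in every mouse. The other 7 did not, among them Neurod2 and Slc17a6, which some cerebellar neurons also express, and Nrgn and Hoxb5. The Hoxb5 signal was 509 and 395 in ILS and 587 and 145 in ISS. Of 5 genes of this list with a 430B probe set, 0 lay below the array median in every mouse. Tph2, 1 of the 5, gave 912 and 772 in ILS and 840 and 802 in ISS. Whether tissue from outside the cerebellum was in the samples was not tested.

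Several properties of the arrays moved with strain. Strain cannot be told apart from scan order on either chip, with ILS scanned first on 430A and ISS on 430B. The fluidics station on 430A, 2 for the ILS mice and 1 for the ISS mice, also cannot be told apart from strain. The control signal for 18S ribosomal RNA on 430A was 538 and 801 in ILS and 147 and 142 in ISS, and on 430B it was 2189 and 2586 in ILS and 545 and 712 in ISS. The 3′ to 5′ signal ratio of the Gapdh control on 430A, in contrast, overlapped between the strains, at 0.743 and 0.855 in ILS and 0.783 in each ISS mouse. Over all probe sets of 430A the median log2 difference was 0.115. Of the 332 probe sets called on 430A, 54.8% were higher in ILS, against 19.3% of 1158 when the arrays were set to equal medians.

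Grin2c was the only tested member at which the strains did not overlap, as they did not at 54.3% of tested probe sets on 430A. Its promoter window is shown because Grin2c is that member, beside that of Grin2d, which was bright on 430B with overlapping strains. Each window is the 250 bases before 1 transcription start, the start the RefSeq promoter table gives for the gene on build GRCm38.p6, read 5′ to 3′ on the gene's strand. It belongs to the reference strain C57BL/6J rather than to ILS or ISS. Capitals mark the GC box GGGCGG (on the reverse strand CCGCCC). The Grin2c window lies at chr11:115267244-115267493 and the Grin2d window at chr7:45866682-45866931, both on the minus strand. The RefSeq gene spans reach further upstream than these starts, to 115267297 for Grin2c, inside its window, and to 45871194 for Grin2d, so that the whole Grin2d window lies within the annotated gene. Other starts of either gene were not analysed here.
Grin2c: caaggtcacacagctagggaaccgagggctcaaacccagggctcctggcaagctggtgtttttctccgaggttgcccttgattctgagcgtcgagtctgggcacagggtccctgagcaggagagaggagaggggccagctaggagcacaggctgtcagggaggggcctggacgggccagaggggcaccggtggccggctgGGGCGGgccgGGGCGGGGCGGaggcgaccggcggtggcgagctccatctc
Grin2d: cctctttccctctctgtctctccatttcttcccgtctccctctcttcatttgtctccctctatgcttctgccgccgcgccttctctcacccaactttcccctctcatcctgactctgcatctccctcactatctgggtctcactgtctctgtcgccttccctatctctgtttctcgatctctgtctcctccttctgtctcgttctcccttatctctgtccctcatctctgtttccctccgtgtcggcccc
For these starts, the Grin2c window held 3 GC boxes on the gene's strand, of which the last pair overlap in a single G, and the Grin2d window held 0. A GC box on either strand occurred in 32.7% of 32851 RefSeq windows of this length. The TATA box TATAAA (reverse strand TTTATA), which does not overlap the GC box, was found in neither window and in 12.4% of all windows. G and C made up 68.8% of the Grin2c window and 54.4% of the Grin2d window, against a median of 52.4%. The arrays measured transcripts and not these windows. RefSeq windows were found for 3 of the 6 genes of the rule.

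Grin2c, which encodes the GluN2C subunit of mature granule cells, had lower signals in both ILS mice at its single probe set, 1449245_at on 430A. Its signal was 1506 in ILS mouse 48, 1306.5 in ILS mouse 51, 1957 in ISS mouse 55 and 2251 in ISS mouse 56. Both ILS mice lay below both ISS mice, and the gap between the strains was wider than the gap within either. How many tested probe sets had such a gap was not computed. The mean was 1406 ± 141 in ILS and 2104 ± 208 in ISS (SD, n = 2), which is 1.5-fold higher in ISS. The log2 difference was -0.58 ± 0.14 (SE), with a 95% interval of -0.89 to -0.27. It did not pass the test over all probe sets (limma adjusted p = 0.0634), although its unadjusted p was under 0.05.

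These values are read against the chip as a whole. On 430A, limma called 2.93% of the 11313 tested probe sets, with 1.33% higher in ISS and 1.61% higher in ILS, and 21.8% had an unadjusted p under 0.05. Both ISS mice lay above both ILS mice, as they did at Grin2c, in 28.7% of tested probe sets, and the strains did not overlap in either direction in 54.3%. The central range of log2 differences among tested probe sets, from the 10th to the 90th percentile, ran from -0.36 to 0.40, and Grin2c lay below it. Grin2c was called by limma when the arrays were set to equal medians (-0.74, adjusted p = 0.0102). That setting called 1158 of the 11313 tested probe sets, 19.3% of them higher in ILS, against 332 called in the main setting. Grin2c was also called without ISS mouse 55 (-0.68), a fit that leaves 1 ISS array. Over all 15 alternatives run its adjusted p ranged from 0.0102 to 0.276 and its log2 difference from -0.74 to -0.48.

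The rank of Grin2c within each array gives the same order without any scaling. It stood at percentile 90.4 and 88.3 of the probe sets in the ILS mice and at 92.7 and 93.8 in the ISS mice. The ranks of the strains therefore did not overlap either, although the probe set was among the brighter ones of every array. Nor did ranks overlap at the dim probe sets 1421616_at (Grin2a), 1431700_at and 1442370_at (both Grin2b). The share of all probe sets whose ranks did not overlap was not computed.

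**Figure D1:**
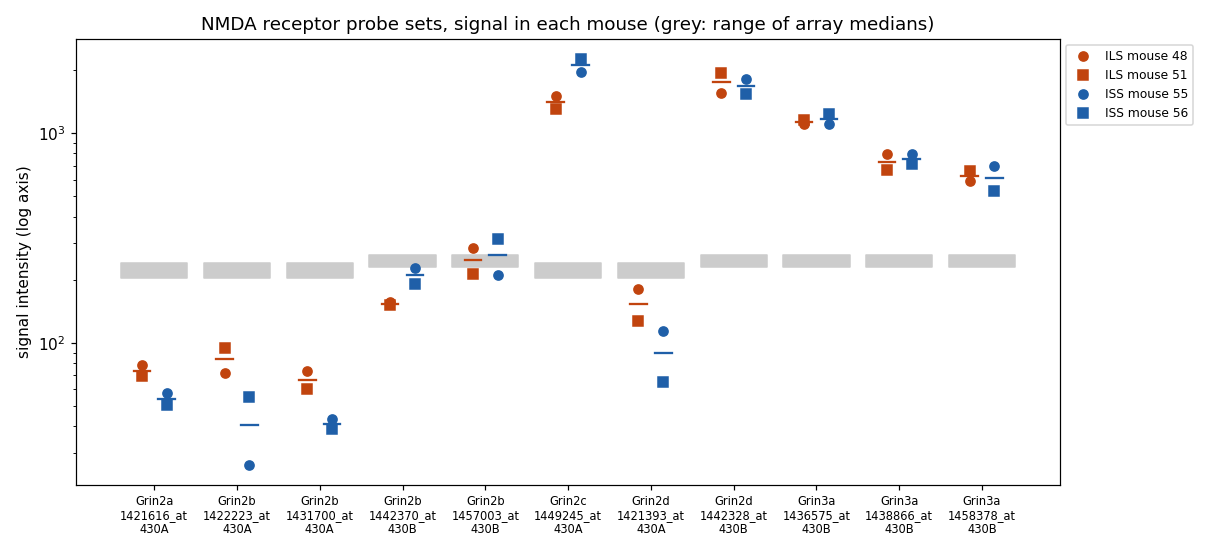
Signal intensity of the 11 NMDA receptor probe sets in each of the 4 mice, on a log axis, with a short line at the mean of each strain and a grey band over the range of the array medians of that chip. Grin2c is bright and lower in both ILS mice, at 1506 and 1306.5 against 1957 and 2251, while the Grin2d and Grin3a probe sets of 430B are bright with overlapping strains.

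Grin2d encodes GluN2D, a subunit of slow channels that in the cerebellum is known from Golgi cells and deep nuclei. At its bright probe set, 1442328_at on 430B, the signal was 1557 in ILS mouse 48, 1928 in ILS mouse 51, 1816 in ISS mouse 55 and 1534 in ISS mouse 56. The highest and the second lowest values were those of the ILS mice, so the strains overlapped. The means were 1742 ± 262 in ILS and 1675 ± 200 in ISS (SD, n = 2), with a log2 difference of 0.05 ± 0.17 (SE, limma adjusted p = 0.96). The 95% interval of the difference ran from -0.33 to 0.44.

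Grin3a encodes GluN3A, a glycine-binding subunit that lowers calcium entry and is most abundant early in postnatal life. All 3 of its probe sets lay on 430B, were tested, and overlapped between the strains. At the brightest, 1436575_at, the signal was 1111 and 1157 in the ILS mice and 1099 and 1231 in the ISS mice, with a log2 difference of -0.04 ± 0.17 (SE, limma adjusted p = 0.971). The ILS values fell between the ISS values. The second, 1438866_at, gave 795 and 666 in ILS and 797 and 714 in ISS, and the third, 1458378_at, gave 592 and 662 in ILS and 697 and 528 in ISS.

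The Grin3a probe sets were close to each other in the strain difference as well. The log2 differences of 1438866_at and 1458378_at were -0.05 and 0.05 (SE 0.20 and 0.22). The 95% interval was -0.41 to 0.33 at 1436575_at, -0.49 to 0.39 at 1438866_at and -0.45 to 0.54 at 1458378_at. Probe sets of one gene on one chip share their RNA and are not replicates.

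Grin2b encodes GluN2B, the subunit of young neurons that granule cells largely lose as they mature. Its probe set 1457003_at on 430B lay near the array median, at 284 and 214 in the ILS mice and 211 and 313 in the ISS mice. The lowest and the highest values were both from ISS, and the strains overlapped. The log2 difference was -0.06 ± 0.35 (SE, limma adjusted p = 0.981), with a 95% interval of -0.84 to 0.72, the widest of the tested members. The other probe set on 430B, 1442370_at, stood below the array median in every mouse, at 156 and 152 in ILS and 229 and 191 in ISS. There both ISS mice were higher, as in 13.1% of the probe sets under the filter on that chip, where 34% did not overlap in either direction. It was not tested.

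No member was called on 430B, where limma called 0.48% of 11256 tested probe sets, and 0 of the 5 tested members had an unadjusted p under 0.05, against 9.02% of tested probe sets. The strains overlapped at all 5, whereas they did not overlap at 38.9% of tested probe sets on 430B. Of the 5, 2 had a log2 difference above 0, as did 49.9% of tested probe sets. On 430A, 0 of 1 tested member was called and that member, Grin2c, had an unadjusted p under 0.05. The 5 members under the filter, 4 on 430A and 1 on 430B, were described and not tested in that setting.

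**Figure D2:**
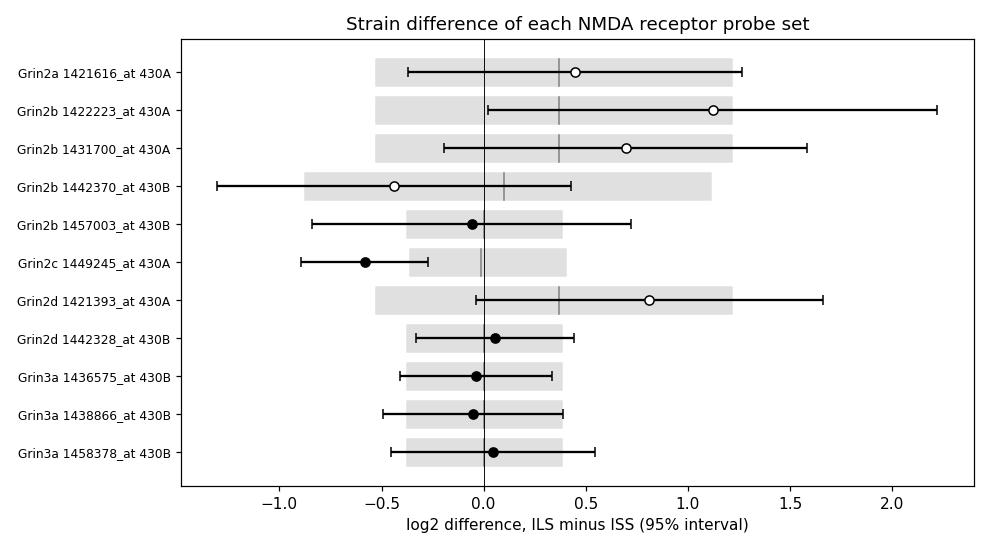
Log2 difference, ILS minus ISS, of each NMDA receptor probe set with its 95% interval, filled where tested and open where under the filter (interval then from the fit with no filter). The grey band runs from the 10th to the 90th percentile of the tested probe sets of that chip, or of those under the filter for open points, with a line at their median, and Grin2c at -0.58 lies outside its band.

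The dim members on 430A were all higher in both ILS mice. Grin2a encodes GluN2A, the subunit that joins GluN2C in mature granule cells, and its probe set 1421616_at gave 78.1 and 69.7 in the ILS mice and 58.0 and 50.6 in the ISS mice. The strains did not overlap, but the signal was far below the array medians, which were 205 to 239. The 25th percentile of the arrays was 76.9 and 69.1 in ILS and 59.2 and 51.9 in ISS, so the Grin2a signal lay next to it in each mouse.

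By rank the Grin2a probe set stood at percentile 25.3 and 25.2 in the ILS mice and 24.7 and 24.6 in the ISS mice, which is nearly the same place in each array. The log2 difference of 0.45 shrank to 0.05 with quantile normalization and to 0.02 with cyclic loess normalization. At this dim signal the probe set gives no measure of how much Grin2a transcript the cerebellum holds.

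The remaining dim members on 430A were the pair for Grin2b and one for Grin2d. The Grin2b probe set 1422223_at gave 72.1 and 94.98 in ILS and 26.2 and 55.3 in ISS, and 1431700_at gave 73.4 and 60.5 in ILS and 43.6 and 38.8 in ISS. The Grin2d probe set 1421393_at gave 180 and 127 in ILS and 114 and 65.1 in ISS. All were higher in both ILS mice, whereas the tested probe sets of Grin2b and Grin2d on 430B overlapped between the strains.

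Their log2 differences were 1.12, 0.70 and 0.81. With cyclic loess normalization these were 0.68, 0.25 and 0.47. Single mice moved them as well: 1422223_at was 0.58 without ISS mouse 55, and the Grin2d probe set was 0.41 without ISS mouse 56 and 1.22 without ISS mouse 55. Among the probe sets of 430A under the filter, 44.1% were likewise higher in both ILS mice, 10.1% were higher in both ISS mice and 54.2% did not overlap in either direction. Of these probe sets 73% had a log2 difference above 0, with a median of 0.37. All 4 dim members lay within the central range of those probe sets, from -0.53 to 1.22. With no filter limma called none of them (adjusted p from 0.243 to 0.494), and 1422223_at alone had an unadjusted p under 0.05. By rank the strains overlapped at 1422223_at and at the Grin2d probe set.

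**Figure D3:**
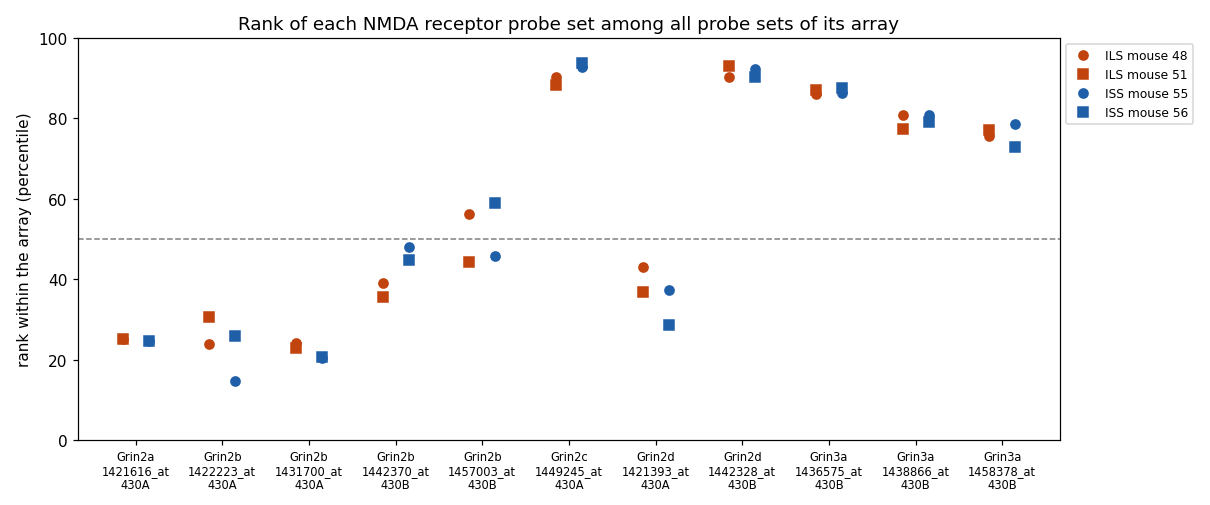
Rank of each NMDA receptor probe set among all probe sets of its array, as a percentile, in each of the 4 mice, with a dashed line at the array median. The Grin2a probe set stands at 24.6 to 25.3 in all mice, whereas Grin2c stands at 88.3 and 90.4 in ILS and at 92.7 and 93.8 in ISS.

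Markers of granule cells were set beside Grin2c because that cell type is its main known source. Of 18 listed granule cell genes, 15 had a probe set on 430A and 14 were tested. None was called by limma. An unadjusted p under 0.05 was found for 5 of the 14, against 21.8% of all tested probe sets. A log2 difference above 0 was found for 3, against 48.3% of all tested probe sets, and the median was -0.20. In 5 of the 14 both ISS mice lay above both ILS mice, which is 35.7% against the 28.7% of all tested probe sets. Summed over the brightest probe set of each gene, the signal was 34990 to 39300 in ILS and 40370 to 46930 in ISS. Bright genes weigh most in this and the later sums, and no reference over the whole chip was computed for them. In this list 1 gene, Zic2, lay below the array median in every mouse.

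Among these markers Reln, the secreted glycoprotein of granule cells, had a difference close to that of Grin2c, at 2914 ± 233 in ILS and 4181 ± 419 in ISS (SD, n = 2) and -0.52 on the log2 scale (limma adjusted p = 0.0605). Gabra6, the GABA-A receptor subunit that defines granule cells, stood at -0.34 with overlapping strains at its brightest probe set and at -0.42 without overlap at the other (limma adjusted p = 0.256 and 0.104). Neurod1, a transcription factor of granule cells, lay the other way at 0.25 (limma adjusted p = 0.29). On 430B limma called 1 of 5 tested granule cell markers, against 0.48% of all tested probe sets. That gene was Slc17a7, the vesicular glutamate transporter of parallel fibres, which was lower in ILS (-1.14 ± 0.16, SE, limma adjusted p = 0.0204). Of the 5, 2 had a log2 difference above 0, against 49.9% of all tested probe sets, and the median was -0.09. In a whole cerebellum, fewer cells of a type and less RNA per cell cannot be told apart, and the part of these markers in the Grin2c value was not tested.

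Of 11 Purkinje cell markers tested on 430A, limma called 2, both lower in ILS, against 1.33% of all tested probe sets. A log2 difference above 0 was found for 1, against 48.3%, and the median was -0.46. Their summed signal was 34210 to 37050 in ILS and 39900 to 50540 in ISS. Of the brightest genes in that sum, Calb1, Pcp4 and Car8 overlapped between the strains and Pcp2 did not. On 430B the list did not share the direction of 430A, as 2 of 4 tested markers were above 0 and the median was -0.04. Limma called 1 of the 4, against 0.48% of all tested probe sets. It was Car8, a carbonic anhydrase-related protein of Purkinje cells, which was higher in ILS (1.51, limma adjusted p = 0.0137). The brightest Car8 probe set on 430A stood at 0.04 with overlapping strains (limma adjusted p = 0.895). The 7 tested markers of Golgi, basket, stellate and unipolar brush cells had a median of 0.01 on 430A, and the 5 on 430B a median of -0.34. None was called by limma, with 1 on each chip at an unadjusted p under 0.05, against 21.8% of all tested probe sets on 430A and 9.02% on 430B.

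Of 9 microglia markers tested on 430A limma called 4, all higher in ILS, against 1.61% of all tested probe sets, with a summed signal of 7410 to 7565 in ILS and 4872 to 5706 in ISS. Of 10 tested oligodendrocyte markers 1 was called on 430A, against 2.93% of all tested probe sets. It was Cldn11, a tight junction protein of myelin, which was higher in ILS (0.78, limma adjusted p = 0.0367). Of 12 tested Bergmann glia and astrocyte markers none was called on 430A, with 5 at an unadjusted p under 0.05, against 21.8%. On 430B 1 of 4 was called, against 0.48% of all tested probe sets. It was the glial filament gene Gfap, which was lower in ILS (-2.37, limma adjusted p = 0.00421). The 6 tested markers of brainstem, midbrain and forebrain neurons had a median of 0.33 on 430A with 5 above 0. Limma called none of them, with 0 at an unadjusted p under 0.05, against 21.8%. The part of these cell types in the member values was not tested.

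The gene most like Grin2c over the 4 arrays of 430A was Ttl, a tubulin tyrosine ligase, followed by Ccn3, a matricellular protein. Likeness was the root mean square difference of log2 signals after each probe set's mean was subtracted, and it was 0.03 for each. The Ttl probe set gave 286 and 243 in ILS and 375 and 441 in ISS, and that of Ccn3 gave 234 and 197 in ILS and 311 and 346 in ISS. Other tested probe sets of Ttl on 430A stood at 0.19 and 0.12, so the likeness held for 1 probe set of that gene. With 4 arrays many probe sets can share a profile.

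The list of NMDA receptor partners and scaffolds gave a single call. Of its 29 genes, which include the subunit gene Grin3b, 18 had a probe set on 430A and 15 were tested. Grin3b was under the filter there, at 62.6 and 44.6 in ILS and 17.9 and 76.6 in ISS. Limma called 1 of the 15, against 2.93% of all tested probe sets. An unadjusted p under 0.05 was found for 4, against 21.8%. Nefl, the neurofilament light chain, which is known to bind GluN1, rose in ILS. Its signal was 9473 and 9199 in the ILS mice and 7241 and 6921 in the ISS mice, with no overlap. The log2 difference was 0.40 ± 0.08 (SE, limma adjusted p = 0.0463). The call ended without any 1 of the 4 mice and in 4 other settings, and the Nefl probe set on 430B stood at 0.19 (limma adjusted p = 0.763).

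Shank3, a master scaffold of the postsynaptic density, gave 1215 and 1411 in ILS and 1784 and 2267 in ISS. Both ILS mice were lower, and the log2 difference of -0.62 ± 0.15 (SE) was close in size to that of Grin2c but did not pass the test (limma adjusted p = 0.071). Shank3 was called by limma with equal medians (-0.78, adjusted p = 0.0138), where 1158 probe sets were called against 332 in the main setting. It was also called without ISS mouse 55 (-0.79). Grina, a membrane protein named for a glutamate-binding part, stood at -0.32 (adjusted p = 0.151) at its brighter probe set and at -0.04 at the other. On 430B none of the 12 tested partners was called by limma, and 0 had an unadjusted p under 0.05, against 9.02% of all tested probe sets.

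Among 31 kinases, phosphatases and calcium effectors, limma called none of the 21 tested on 430A. Of the 21, 1 had an unadjusted p under 0.05, against 21.8% of all tested probe sets. That gene was Tiam1, a Rac activator downstream of the receptor that is also in the granule cell list, at -0.38 (adjusted p = 0.127). The median of the 21 was -0.14, against -0.01 over all tested probe sets. Below 0 lay 16 and above 0 lay 5, whereas 48.3% of all tested probe sets were above 0.

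On 430B, 1 of 9 tested effectors was called. Camk4, a calcium and calmodulin-dependent kinase of granule cells, fell in ILS, as 0.284% of tested probe sets of 430B did by the same test, at 6181 and 5297 in the ILS mice and 10180 and 12450 in the ISS mice. The log2 difference was -0.98 ± 0.15 (SE, limma adjusted p = 0.0281), and a second probe set on 430B was called the same way (-1.10, adjusted p = 0.0228). On 430A limma called neither tested probe set of Camk4, where the log2 differences were 0.11 and 0.46. The call at the brighter probe set ended without ILS mouse 48, ILS mouse 51 or ISS mouse 56, with equal medians, with no filter, with no intensity trend and with the station as a block. Creb1, the transcription factor that Camk4 phosphorylates, stood at -0.34 (adjusted p = 0.517) at one 430B probe set and at -0.10 at the other, where the strains overlapped.

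Genes that make, cleave or carry the co-agonists glycine and D-serine had no called member. Of 15 listed, 10 were tested on 430A and 3 on 430B, with 2 and 0 at an unadjusted p under 0.05. Of all tested probe sets, 21.8% on 430A and 9.02% on 430B had such a p. Gcsh, a part of the glycine cleavage system, gave 2029 and 1826 in the ILS mice and 1353 and 1120 in the ISS mice. The ILS mice were higher without overlap, with a log2 difference of 0.64 ± 0.14 (SE, limma adjusted p = 0.0527). Gldc, another part of that system, lay the other way, at 165 and 130 in ILS and 208 and 253 in ISS. It was under the filter and not tested, and 10.1% of such probe sets on 430A were likewise higher in both ISS mice. Gcsh was called with quantile normalization, with cyclic loess normalization, with robust eBayes and without ISS mouse 55.

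Phgdh and Psat1 encode enzymes of serine synthesis, which feeds D-serine. They stood at 0.38 (limma adjusted p = 0.167) and 0.40 (adjusted p = 0.229) on 430A. Psat1 stood at 0.14 without ISS mouse 56 and 0.65 without ISS mouse 55, and Phgdh at 0.24 without ILS mouse 51. With equal medians Phgdh stood at 0.22 and Psat1 at 0.24. Other probe sets of Phgdh lay between -0.11 and 0.19, so the gene's probe sets did not share a direction. The brightest Srr probe set on 430B, for serine racemase, which makes D-serine, stood at -0.11 (adjusted p = 0.906).

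**Figure D4:**
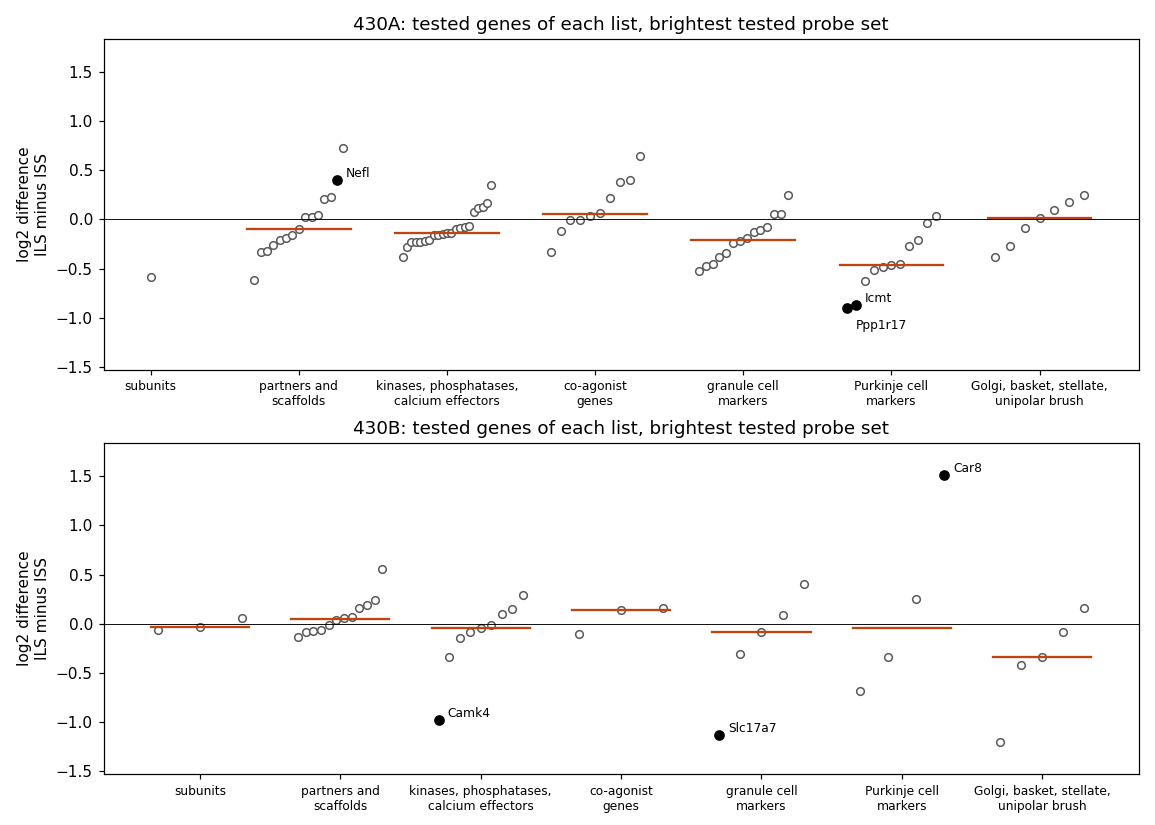
Log2 difference, ILS minus ISS, of the tested genes of each list on 430A (top) and 430B (bottom), 1 point per gene at its brightest tested probe set, filled where called by limma and named, with a line at the list's median. Nefl at 0.40 and Camk4 at -0.98 are the called genes of the pathway lists, and Purkinje cell markers on 430A have a median of -0.46.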

How the data were processed

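Each mouse's biotin-labelled RNA was measured on a 430A and a 430B array. The values deposited by the authors are linear signal intensities from MAS5 according to the submitters' processing notes (version not given in the sources used here), with no detection calls. The experiment files, of unit other, give chip type, station and scan order, per the file headers; the chip type was used to check each array. Signals were scaled to a trimmed mean (2%) of 500 per array, then log2 transformed, and 64 control probe sets per chip were dropped. For each chip the strains were compared with R 4.3.3 and limma 3.58.1 (lmFit, eBayes with an intensity trend, 2 residual degrees of freedom), two-sided, with Benjamini-Hochberg adjustment over 11313 and 11256 tested probe sets. The replicates are separate mice, and the number of arrays limits the precision. A gene in a list was read at its brightest tested probe set. Of each pathway list the called genes were named, and otherwise those with the smallest p up to 3. Gabra6, Neurod1, Reln, Slc17a7, Srr, Zic2, Pcp2, Car8, Cldn11, Gfap, Tbr1, Neurod6, Slc6a3, Neurod2 and Slc17a6 were chosen after their values were seen. So were Nrgn, Hoxb5, Tph2, Gldc, Grin3b, Calb1 and Pcp4. Members and lists were chosen with earlier results of these data known. The steps were tested on simulated data. Alternatives covered scaling, low values, filters, the variance model, adjustment, station and leaving out each mouse.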

Additional observations from a re-analysis of the deposited data

How the results depend on the processing

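Calls rested on 2 mice a strain, so single mice decided several of them. The count of called NMDA receptor probe sets on 430A was 0, and 1 with equal array medians; leaving out each mouse gave 0 to 1. On 430B it was 0 in every alternative run. The count of called partner, effector and co-agonist genes on 430A was 1. It was 3 with equal medians, 2 with quantile normalization, cyclic loess normalization or robust eBayes, 0 with no filter, with no intensity trend or with both chips adjusted together, and 0 to 2 without one mouse. On 430B it was 1, and 0 with equal medians, no filter, no intensity trend or the station as a block; leaving out each mouse gave 0 to 1. The block on 430B fits ILS mouse 48 exactly and cannot be told apart from leaving out that mouse, and on 430A no such fit can be had. Near 0 the sign of the 430B members was not stable. With equal medians Grin3a 1458378_at stood at -0.0034. Leaving out each mouse gave -0.15 to 0.25 there, -0.12 to 0.0452 for Grin3a 1436575_at, -0.18 to 0.0755 for Grin3a 1438866_at, -0.10 to 0.21 for Grin2d 1442328_at and -0.35 to 0.23 for Grin2b 1457003_at, none of them called. The cause was not tested. These fits take the spread of a strain left with 1 array from the other strain. No paired analysis was possible because the strains share no mouse numbers.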
